A study of Mus musculus with 3 samples.

Results

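Genes for 9 enzymes and enzyme subunits of the tricarboxylic acid cycle were examined for binding of estrogen-related receptor α (ESRRA) in the mouse duodenum: Cs, Idh3a, Idh3b, Ogdh, Dlst, Suclg1, Sucla2, Fh1 and Mdh2. An ESRRA-bound region, or peak, was assigned to a gene when its midpoint lay within 30 kb of any annotated transcript start site of that gene, and genes with no such peak were kept as negatives. By this rule 4 of the 1639 peaks in the deposited list belonged to these genes, which are 9 of the 22225 protein-coding genes in the annotation. Chromatin immunoprecipitation sequencing (ChIP-seq) was performed on adult villus cells of the duodenal epithelium from WT mice, which per the methods of the study were C57BL/6 animals fed regular chow. The series holds 2 libraries made with an antibody to Esrra and 1 input library, which is sheared chromatin sequenced without enrichment. The peaks were called by the authors on both antibody libraries merged, so each peak is a single observation with no value per replicate, no height and no replicate error, and the depth of the libraries is not in the list. Whether animals were pooled is not given in the sources used here, and the villus label could not be checked against marker genes because a peak list holds no expression values.

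The tricarboxylic acid cycle burns the acetyl group of acetyl-CoA in the mitochondrial matrix and passes its electrons to NADH and FADH2, which feed the respiratory chain. The enterocytes that cover the villus absorb nutrients and spend much ATP on transport. ESRRA is an orphan nuclear receptor known for binding near genes of mitochondrial energy metabolism, and it binds DNA as a monomer or dimer on an extended half-site, TCAAGGTCA, whose core is AAGGTCA.

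The half-site cores inside 3 of the 4 peaks are shown first, because the core is what all 4 regions share. Each line gives 29 bases of the NCBI build 37 (mm9) genome from 5′ to 3′ on the strand that reads AAGGTCA, with that core in capitals. The first lies upstream of Cs at chr10:127774482-127774510 on the minus strand. The second lies in an Idh3a intron at chr9:54434529-54434557 on the plus strand. The third lies in an untranslated or non-coding exon of Ogdh at chr11:6192627-6192655 on the plus strand.
Cs upstream: cgcgacgtttgAAGGTCActgaacactgc
Idh3a intron: gggacggcgtcAAGGTCAaggcggccagt
Ogdh exon: cttgacgtcaaAAGGTCActcaaggaaca
With the 2 bases before the core, these read TGAAGGTCA, TCAAGGTCA and AAAAGGTCA, and the core in the second Cs peak, in an intron, read CCAAGGTCA, so that only the Idh3a site was the full extended half-site. The Cs sites each differed from it at 1 base and the Ogdh site at 2 bases.

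Wider stretches of 200 bases show the setting of the upstream Cs site and the Idh3a site, both outside exons, printed on the plus strand, which is the strand of both genes. Capitals again mark the core, which appears as its reverse complement TGACCTT upstream of Cs. They span chr10:127774396-127774595 and chr9:54434443-54434642 in that order.
Cs upstream, 200 bases: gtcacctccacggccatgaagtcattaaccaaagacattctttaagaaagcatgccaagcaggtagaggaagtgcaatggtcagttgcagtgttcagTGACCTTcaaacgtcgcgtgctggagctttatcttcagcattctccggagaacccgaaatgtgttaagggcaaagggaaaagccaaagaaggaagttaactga
Idh3a intron, 200 bases: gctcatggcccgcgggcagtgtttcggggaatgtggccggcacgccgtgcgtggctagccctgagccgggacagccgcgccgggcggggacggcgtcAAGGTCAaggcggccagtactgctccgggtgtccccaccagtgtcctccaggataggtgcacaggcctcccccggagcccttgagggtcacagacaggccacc

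ESRRA peaks were found at Cs, Idh3a and Ogdh, which encode citrate synthase and 1 component each of isocitrate dehydrogenase and the 2-oxoglutarate dehydrogenase complex, and at none of the other 6 genes. Cs had 2 peaks, and Idh3a and Ogdh had 1 each. All 4 peaks lay within 1 kb of a start site of their gene, and no peak was added between 1 kb and 30 kb. The 3 of 9 genes (33.3%) compare with 1954 of the 22225 protein-coding genes (8.79%) that had a peak within 30 kb, and with 464 (2.09%) that had one within 1 kb. Of all peaks, 443 (27.0%) lay within 1 kb of the start of a protein-coding gene. The peak farthest inside the 30 kb limit was 603 bp from its start site, in Cs, and the nearest one outside it was 30523 bp downstream of the Cs start, at chr10:127805111-127805711 in an intron of Coq10a. No test was run on these counts, since the genes were chosen with results of these data known.

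**Figure D1:**
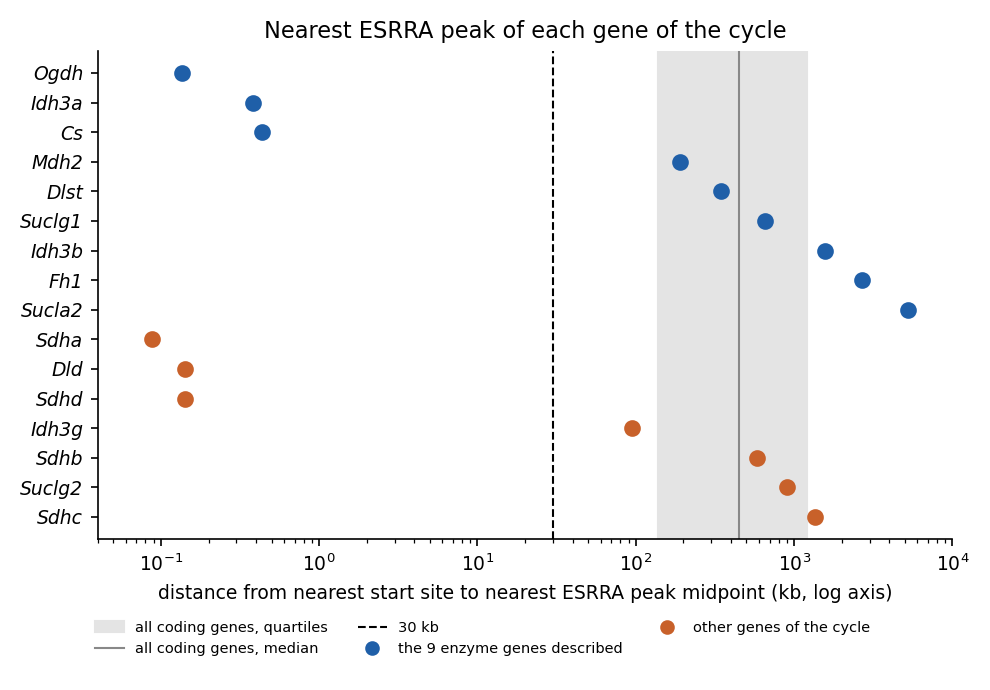
Each point gives the distance in kb, on a log axis, from a gene's start sites to the nearest ESRRA peak midpoint, for the 9 genes described (blue) and the 7 other genes of the cycle that were examined (orange). The grey band and line are the quartiles (139 to 1197 kb) and median (446 kb) of all protein-coding genes, and the dashed line is the 30 kb limit. Cs, Idh3a and Ogdh sit under 1 kb and the other 6 blue points beyond 100 kb.

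Cs encodes citrate synthase, which joins acetyl-CoA to oxaloacetate in the first step of the cycle. The gene (ENSMUSG00000005683.7, chr10:127774888-127799535, plus strand) has 1 annotated start site, and that start lay between its 2 peaks. The upstream peak, chr10:127774153-127774753, had its midpoint 435 bp upstream of the start, outside annotated genes. The downstream peak, chr10:127775191-127775791, had its midpoint 603 bp downstream, in an intron. The midpoints were 1038 bp apart, and neither peak held any exonic base. The start itself was covered by neither peak. Since every listed peak is 601 bp wide, the ends of these peaks need not be the ends of the bound regions. With peaks less than 1 kb apart joined, peaks at the 9 genes numbered 3, against 4. The 601 bp centered on the Cs start had a GC content of 65.7%, against 46.6% in the upstream peak and 52.4% in the intronic peak. The ratio of observed to expected CpG was 0.525 in the upstream peak and 0.365 in the intronic peak, and 0.750 at the start. The core lay 392 bp upstream of the start in one peak, on the strand opposite to the gene, and 822 bp downstream in the other, on the strand of the gene.

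Having 2 or more peaks within 30 kb was shared by 458 protein-coding genes (2.06%), and having a peak on each side of a start site within 1 kb by 9 genes (0.0405%). The second measure was chosen after the Cs peaks were seen, and the peaks of 3 of those 9 genes lie in sequence with many genomic copies. The Cs peaks were of single-copy sequence, as were those of Idh3a and Ogdh. Besides Cs, the genes with such flanked starts and no multi-copy peak were Gapdh, Tpi1, Gm8979, Lgals4 and Zfp787. Of these, Gapdh and Tpi1 encode glycolytic enzymes. All are named after their values were seen. The only other protein-coding gene with a start within 30 kb of the Cs peaks was Cnpy2, 14938 bp from the upstream and 15976 bp from the intronic midpoint.

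**Figure D2:**
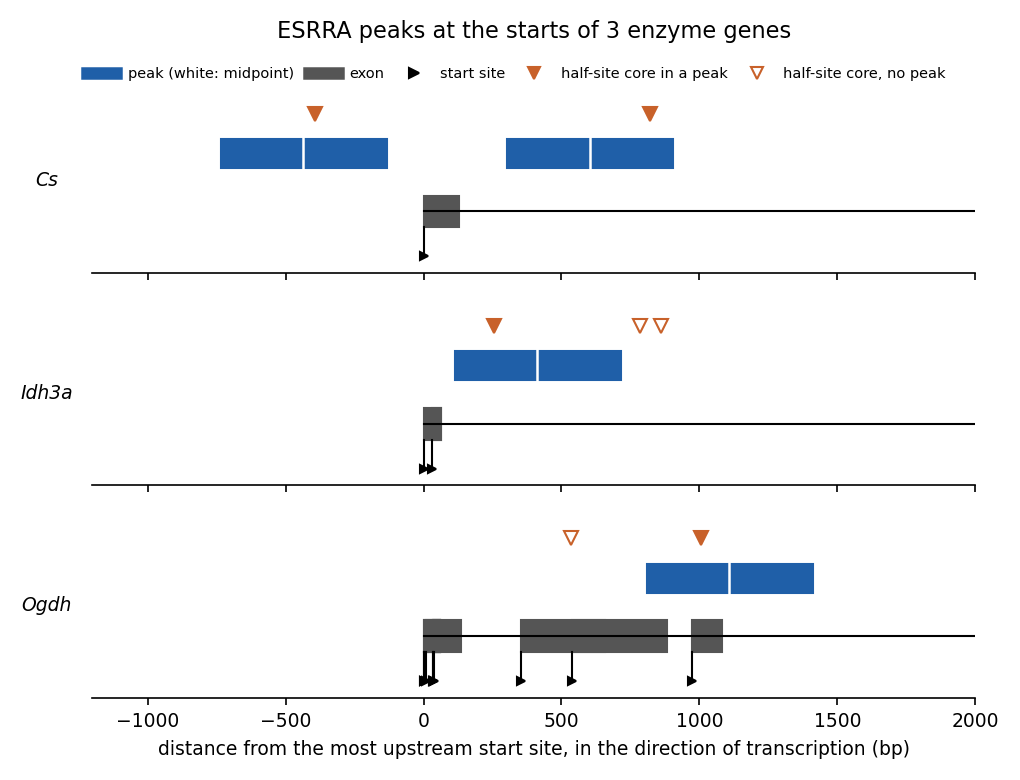
The first 2000 bp of Cs, Idh3a and Ogdh and the bases before them are drawn to scale in the direction of transcription, with 0 at the most upstream annotated start site. Blue bars are the 601 bp ESRRA peaks with their midpoints in white, dark boxes exons, arrowheads start sites, and triangles AAGGTCA cores within 1 kb of a start site, filled where they lie in a peak. The Cs peaks flank the start, the Idh3a peak lies past the first exon, and the Ogdh peak overlaps the end of one later first exon and the whole of another.

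Idh3a encodes the catalytic α subunit of the NAD-dependent isocitrate dehydrogenase, which oxidizes isocitrate to 2-oxoglutarate. Its single peak, chr9:54434401-54435001, had its midpoint 383 bp downstream of the nearest start site of the gene (ENSMUSG00000032279.9, chr9:54434288-54452468, plus strand), in an intron. This was the most GC-rich of the 4 peaks, at 63.6% with a CpG ratio of 0.692. Its core, the only full TCAAGGTCA among these peaks, lay 225 bp downstream of the start on the strand of the gene. The peak also held the YY1 sequence GATGGCGG and the GC box GGGCGG. It stood alone: the next peak in the list was 925 kb away, and the only other protein-coding gene with a start within 30 kb was Cib2, at 26676 bp. A second full TCAAGGTCA, 755 bp downstream of the Idh3a start at chr9:54435059-54435087 on the plus strand, lay just past the end of the peak and was not in any peak. All listed peaks share the width of 601 bp, so the end of the peak need not be the end of the bound region. This second site is shown because it carries the same 9 bases as the site in the peak and differs in the bases around them.
Idh3a, not in a peak: caaatttgctcAAGGTCAtacaggaggtc

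Idh3b encodes the β subunit of the same enzyme, which is needed for its activity, and had no peak. Its gene (chr2:130105045-130110283, minus strand) was 1558942 bp from the nearest peak, which lay closest to the start of Mertk. Of all protein-coding genes, 80.7% had a nearer peak. The gene held 3 AAGGTCA cores within 1 kb of its start sites, as many as Idh3a. Of these, 1 lay in a coding exon, 884 bp upstream of a start site inside the gene, at position 130106287. All 3 had a C just before the core, as in the extended half-site, in the forms GCAAGGTCA, ACAAGGTCA and GCAAGGTCA.

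Ogdh encodes 2-oxoglutarate dehydrogenase, the E1 component of the complex that turns 2-oxoglutarate into succinyl-CoA. The gene (ENSMUSG00000020456.10, chr11:6191636-6256645, plus strand) has 11 annotated transcripts with 9 start sites. The peak, chr11:6192445-6193045, had its midpoint 137 bp downstream of the alternative start site at position 6192608 and 1109 bp downstream of the 5′ end of the gene. It is therefore a peak within 1 kb only when alternative start sites are used. Counted from the 5′ end alone, a measure added after the data were seen, 2 of the 9 genes (Cs and Idh3a) had a peak within 1 kb, beside 384 protein-coding genes (1.73%). The midpoint fell in an intron and 182 of the 601 bases in exons. The core lay in an untranslated or non-coding exon, 33 bp downstream of the alternative start. TGACGTCA, the sequence of a cyclic AMP response element, stood just before the core at chr11:6192629-6192636. The peak also held GCATGCGC, the core of the NRF1 site. Its GC content was 45.4%, the lowest of the 4 peaks. A second core, 4 bp upstream of another Ogdh start and read on the minus strand (chr11:6192157-6192185), was not in a peak. It is shown because it has the form CCAAGGTCA of the Cs intron.
Ogdh, not in a peak: ccgcaggcaccAAGGTCAgcgccgtgtcc

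The next peak was 49.5 kb from the Ogdh peak, on the side of Npc1l1 and outside the reach of Ogdh. Tmed4 and Ddx56 also had start sites within 30 kb of the Ogdh peak, at 17872 and 24970 bp. Dlst encodes the E2 component of the same complex, dihydrolipoamide S-succinyltransferase, and had no peak in reach. Its gene (chr12:86451783-86475041, plus strand) was 346432 bp from the nearest peak, which lay 1388 bp from a start of Fos. It held no AAGGTCA within 1 kb of a start site.

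Among the genes of the steps after 2-oxoglutarate, Suclg1, Sucla2, Fh1 and Mdh2 had no peak. Suclg1 encodes the α subunit of succinyl-CoA synthetase, which makes ATP or GTP directly. It (chr6:73198376-73226905, plus strand) was 649693 bp from the nearest peak, at Retsat, and had no core within 1 kb of a start. Sucla2 encodes the β subunit of the ATP-forming enzyme. It (chr14:73925126-73995949, plus strand) was the farthest of all 9 genes from a peak, at 5254245 bp, and 98.6% of protein-coding genes had a nearer one. It held 3 cores within 1 kb of its start sites, in the forms CTAAGGTCA, ATAAGGTCA and CTAAGGTCA, which each differ from the extended half-site at 2 bases. All 3 were counted from start sites other than the one at the 5′ end of the gene, and the last lay in a coding exon.

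Fh1 encodes fumarase, which hydrates fumarate to malate. It (chr1:177530505-177555766, minus strand) was 2692955 bp from the nearest peak, at Fam36a. Of its 2 cores within 1 kb of a start site, 1 lay 352 bp upstream of a start inside the gene, at position 177534416. The other, 160 bp downstream of a start, in an intron and on the strand opposite to the gene, had the form TGAAGGTCA. It is shown, at chr1:177555529-177555557 on the plus strand, because it shares all 9 bases with the site in the upstream Cs peak.
Fh1, not in a peak: actctgacgtgAAGGTCAccccggggagg
Mdh2 encodes the mitochondrial malate dehydrogenase, which closes the cycle by restoring oxaloacetate. It (chr5:136254350-136266268, plus strand) had the nearest peak of the 6 genes without one in reach, at 189615 bp, with Ccl24 the gene closest to that peak, and 30.5% of protein-coding genes had a nearer peak. It held no core within 1 kb of a start. The 6 genes had a median distance of 1104 kb to the nearest peak, against 446 kb for all protein-coding genes, and the single genes ranged on both sides of that value. These 6 were set apart by having no peak in reach, so the 2 medians are not of like sets. All 9 genes together had a median of 346 kb.

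The AAGGTCA core lay within 1 kb of a start site in 6 of the 9 genes, and 3 of those 6 had a peak there. Over all protein-coding genes, 9796 (44.1%) had a core within 1 kb, of which 3.50% had a peak within 1 kb, against 0.974% of the genes without a core. Dlst, Suclg1 and Mdh2 had neither core nor peak. The full TCAAGGTCA within 1 kb was found in 1788 protein-coding genes (8.04%), of which 6.77% had a peak within 1 kb, and among the 9 genes in Idh3a alone. Counted by site, 4 of the 15 cores within 1 kb of the start sites of the 9 genes lay in a peak (26.7%), beside 1.92% of the 15119 cores within 1 kb of any protein-coding start. Within 30 kb the same 4 of 127 cores were in a peak (3.15%), beside 0.206% of the 504476 cores in the genome. The genome value includes cores far from any start, so it is not a like background for the cores within 30 kb. No share for cores within 30 kb of any protein-coding start is given. The shares of the 9 genes, 26.7% and 3.15%, rest on the same 4 peaks that the assignment rule selected and are given as a description.

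**Figure D3:**
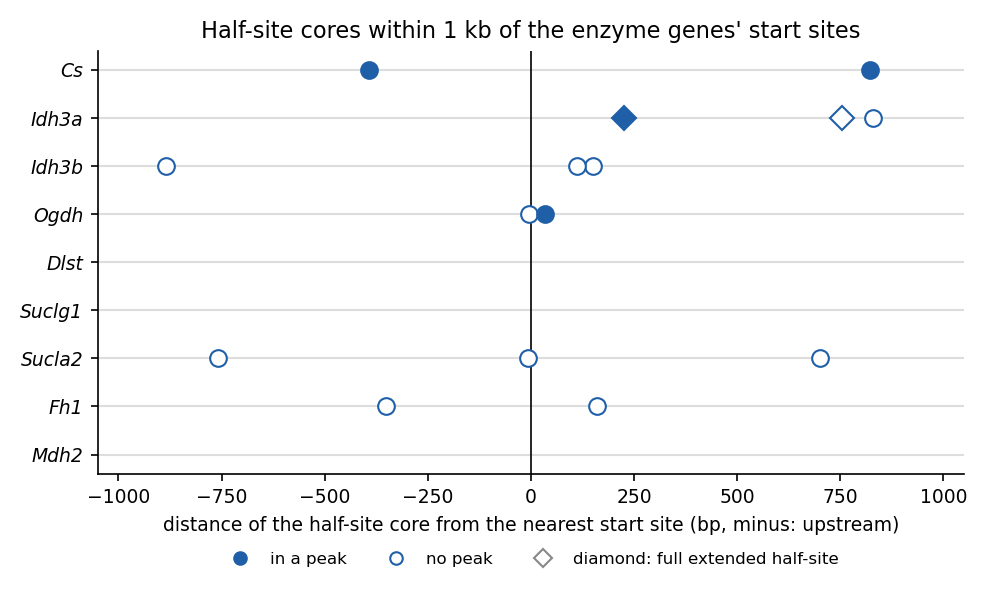
Each symbol is an AAGGTCA core within 1 kb of a start site of the gene named at the left, placed by its distance in bp from the nearest start site, with upstream negative. Filled symbols lie in an ESRRA peak and diamonds are full TCAAGGTCA sites. Of 15 cores, the 4 filled ones belong to Cs, Idh3a and Ogdh, and Idh3b, Sucla2 and Fh1 hold 8 cores with none in a peak. Some of these 8 are counted from start sites inside the gene and not from its 5′ end.

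The 2 bases before the core ordered the sites over the whole annotation. Within 1 kb of protein-coding starts, CCAAGGTCA lay in a peak at 4.46% of its sites and TCAAGGTCA at 4.26%, the highest of the 16 forms. The form of the upstream Cs site and of the Fh1 site without a peak, TGAAGGTCA, was in a peak at 2.05%. The form of the Ogdh site, AAAAGGTCA, was in a peak at 0.894% and ranked 11. The forms at Idh3b, GCAAGGTCA and ACAAGGTCA, stood at 1.65% and 1.07%, and those at Sucla2, CTAAGGTCA and ATAAGGTCA, at 0.617% and 0.412%. The sites in peaks at the 9 genes therefore ranged from the top of this order to its lower part. Counted by gene, as was noticed after the values were seen, Cs, Idh3a and Ogdh each held a CCAAGGTCA or TCAAGGTCA within 1 kb of a start, which at Ogdh was not in its peak, and none of the other 6 genes held either form there. The share of all protein-coding genes with either form is not given. The split did not hold over the other genes of the cycle described below. There Sdhd held TCAAGGTCA in its peak, Sdhb and Sdhc held such a form without a peak, and Dld and Sdha had a peak with neither form.

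The core was in 4 of the 4 peaks, against 721 of all 1639 peaks (44.0%), 51.9% of the peaks within 1 kb of a protein-coding start, 12.6% of the 3074 windows of the same length placed 2 kb to either side of the peaks, and 7.83% of all windows centered on protein-coding starts. The full TCAAGGTCA was in 1 of the 4 peaks, against 14.3% of all peaks, and TNAAGGTCA in 2 of 4, against 20.4%. A word with at most 1 mismatch to TCAAGGTCA was in 4 of 4, against 46.3% of all peaks. In the Ogdh peak that word was not the core shown above but TCAATGTCA and TCAAGGGCA. The distance from the core to the peak midpoint was 43 bp upstream of Cs, 219 bp in the Cs intron, 158 bp in Idh3a and 104 bp in Ogdh, where peaks with a core had a median distance of 65.0 bp (quartiles 25.0 and 127 bp, n = 721). Only the upstream Cs core lay wholly within 100 bp of its peak midpoint, where 29.3% of all peaks held a core. The reversed sequence ACTGGAA, searched as a control, was in 0 of the 4 peaks and in 10.4% of all peaks and 13.6% of the neighboring windows.

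**Figure D4:**
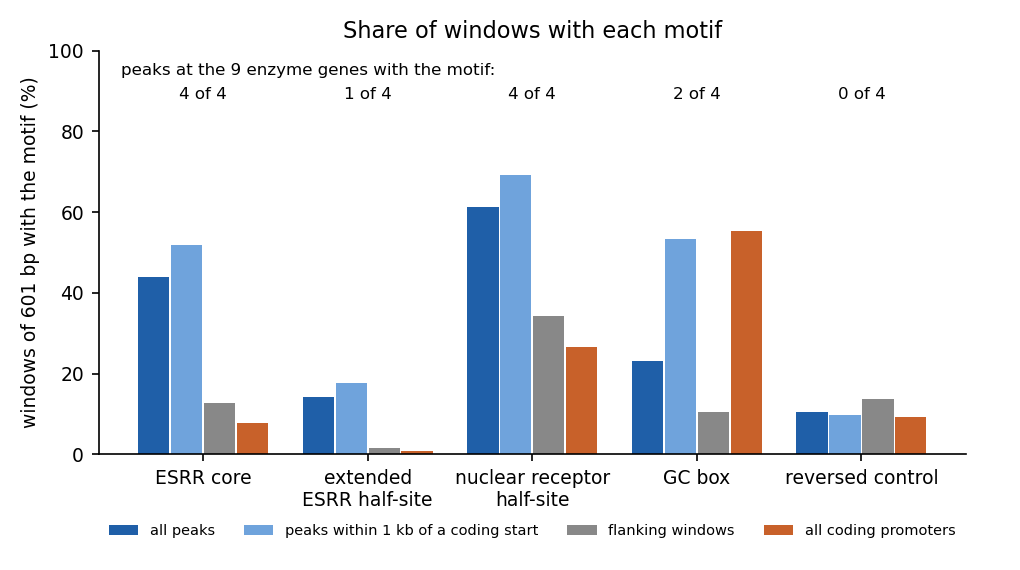
Bars give the percent of 601 bp windows that hold each motif on either strand, in all 1639 peaks, the 443 peaks within 1 kb of a protein-coding start, the 3074 flanking windows and the 22225 protein-coding promoters. The counts above the bars are for the 4 peaks at the 9 genes. The ESRR core is AAGGTCA (4 of 4 peaks, 44.0% of all peaks), the extended half-site TCAAGGTCA, the nuclear receptor half-site AGGTCA, which lies within both, the GC box GGGCGG and the reversed control ACTGGAA.

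Other searched motifs are set beside the peaks within 1 kb of a protein-coding start, since all 4 peaks are of that kind. GGGCGG was in 2 of the 4 peaks, against 53.3% of those promoter peaks and 23.2% of all peaks, a share near that of promoter peaks in general. GCATGCGC was in 1 of 4, against 2.93% of promoter peaks, GATGGCGG in 1 of 4, against 4.74%, and TGACGTCA in 1 of 4, against 2.48%. The ETS sequence CCGGAAGT, the E-box CACGTG and the HNF4A sequence CAAAGTCCA were in none, against 6.77%, 10.8% and 0.903% of promoter peaks. The promoters of all 9 genes, with or without a peak, had a CpG ratio above the median of 0.587 over all protein-coding promoters. For each gene the promoter was the 601 bp centered on the most upstream start site of a protein-coding transcript. At Ogdh this start was position 6191636, upstream of the peak, and other start sites of a gene were not used. The ratio ran from 0.750, at Cs, to 0.936, at Idh3a, and was 0.932 at Fh1 and 0.930 at Idh3b. The GC content of these promoters lay on both sides of the median of 56.9%, from 44.4% at Sucla2 to 68.4% at Dlst.

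Further genes of the cycle were read in the same way. Of 7 such genes, 3 had a peak within 30 kb, and all 3 had it within 1 kb. They were Dld, the E3 component shared by the Ogdh complex and pyruvate dehydrogenase, and Sdha and Sdhd, subunits of succinate dehydrogenase. The midpoints were 142, 88 and 142 bp downstream of a start in Dld, Sdha and Sdhd. The Sdha peak was also 240 bp from a start of Ccdc127 and the Sdhd peak 194 bp from a start of Timm8b. With the 9 genes, 6 of 16 genes of the cycle had a peak within 30 kb, again beside 8.79% of protein-coding genes. By enzyme, peaks were present at the E1 and E3 genes of the 2-oxoglutarate dehydrogenase complex and absent from the E2 gene Dlst, absent from the 3 genes of succinyl-CoA synthetase, and present at Sdha and Sdhd but absent from Sdhb and Sdhc, the other subunit genes of succinate dehydrogenase, which are named after their values were seen. The nearest peak was 583897 bp from Sdhb and 1349838 bp from Sdhc. Both held a core outside any peak, a TCAAGGTCA 330 bp downstream of a start in Sdhb and a CCAAGGTCA 486 bp downstream in Sdhc. Of the 3 isocitrate dehydrogenase subunit genes only the catalytic one, Idh3a, had a peak in reach. The Sdhd peak held TCAAGGTCA, the Sdha peak held CGAAGGTCA and the Dld peak no core.

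Around the cycle, counts are again to be read beside 8.79% of protein-coding genes with a peak within 30 kb and 2.09% within 1 kb. Of 8 genes for the entry of carbon, 1 had a peak within 30 kb. This was Pdhb, the E1 β subunit of pyruvate dehydrogenase, with a midpoint 91 bp downstream of its start. Of 8 genes for other enzymes related to those of the cycle, 3 had a peak, none within 1 kb: Idh1 at 20059 bp, Mdh1 at 1523 bp and Me2 at 15211 bp. Mdh1, the cytosolic malate dehydrogenase, thus had a peak in reach while the mitochondrial Mdh2 had none, and Idh1, the cytosolic isocitrate dehydrogenase, had its peak far from the start. The Idh1 peak lay outside genes and 30974 bp from the 5′ end of the gene, so it was in reach only through an alternative start site. The Mdh1 peak lay 1565 bp from a start of Wdpcp as well. Of 4 genes for carriers of cycle intermediates, Slc25a10 and Slc25a11 each had 2 peaks in reach, none within 1 kb. The nearer Slc25a10 peak, at 6951 bp, was 138 bp from a start of Mrpl12, and the Slc25a11 peaks, at 3631 and 3821 bp, were closer to Gp1ba (3135 bp) and to Rnf167 (1364 bp).

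The distance allowed between start site and peak was varied to see where the 9 genes gained peaks. At 0.25 kb 1 gene, Ogdh, had a peak, beside 0.873% of protein-coding genes, and at 0.5 kb all of Cs, Idh3a and Ogdh had one, beside 1.52%. From there to 100 kb no gene was added, while the share of protein-coding genes rose to 19.8%. At 1000 kb 6 of 9 genes (66.7%) and 70.9% of protein-coding genes had a peak in reach.

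**Figure D5:**
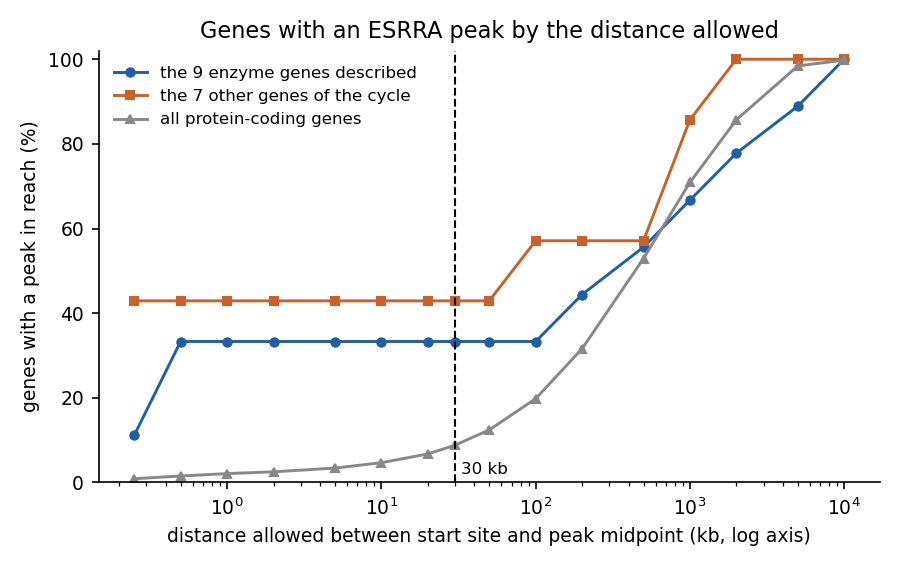
The percent of genes with an ESRRA peak midpoint in reach is plotted against the distance allowed from a start site in kb (log axis), for the 9 genes described, the 7 other genes of the cycle and all 22225 protein-coding genes. The line of the 9 genes is flat at 33.3% from 0.5 kb to 100 kb and the line of the 7 genes at 42.9% from 0.25 kb to 50 kb, and the lines of the 9 genes and of all protein-coding genes cross between 500 and 1000 kb.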

How the data were processed

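ESRRA ChIP-seq libraries (n = 2) and 1 input library from duodenal villus cells of WT mice were analysed through the authors' deposited peak list, which holds 3 columns (chromosome, start, end) and no score. Per the submitters' processing notes the authors used FastQC 0.11.3, Bowtie2 2.2.6, SAMtools 0.1.19 and deepTools 2.4.2 with the mm9 genome, and the list carries MACS2 peaks of the merged libraries at a p-value of 1e-05. All peaks are 601 bp wide. How they came to 1 width is not given in the sources used here, so the midpoint need not be the summit. Depth per library was not analysed, and merging leaves no replicate error, so no test was run.

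Start sites of all transcripts of protein-coding genes were taken from the GENCODE M1 annotation of the same build, and sequences from the NCBIM37 genome. Of the 36 genes in the lists, 2 stand under older symbols, matched through RefSeq synonyms. A peak belonged to a gene when its midpoint lay within 30 kb of a start site, and a promoter peak within 1 kb. Exact matches to 12 motifs were searched on both strands. AAGGTCA contains AGGTCA and lies within TCAAGGTCA and TNAAGGTCA, so these counts overlap. Flanking windows of 601 bp were placed 2 kb from each peak and kept where they met no peak. Peaks whose 24-base words had a median of more than 10 genomic copies (324 of 1639) were called multi-copy. All 9 member genes were named, with every peak in reach or the nearest peak, and genes of the pathway lists with a peak. A gene chosen for the lists and a stretch of sequence are not reported here. Members and lists were chosen with earlier results of these data known. Counts are read beside the same share over all protein-coding genes or all peaks. Scripts (Python 3.11.15, numpy 2.4.6, pysam 0.24.0, numba 0.67.0) were tested on simulated data. Alternatives varied the reach, the start sites, the peak position, the joining of close peaks, copy number, the half-site and its window.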

Additional observations from a re-analysis of the deposited data

How the results depend on the processing

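The 3 genes with a peak (Cs, Idh3a and Ogdh) were the same at reaches of 1, 5, 10, 50 and 100 kb, with the peak edge in place of the midpoint, with start sites of protein-coding transcripts only, with the 5′ end of the gene only, with single-copy peaks only and when a peak counted only for its nearest start site. The background moved with the reach: 464 protein-coding genes had a peak at 1 kb, 754 at 5 kb, 1036 at 10 kb and 4409 at 100 kb, against 1954 at 30 kb, and 979 when a peak counted only for its nearest start site. Peaks at the 9 genes numbered 7 at 100 kb and 3 with peaks less than 1 kb apart joined, against 4. Peaks with the half-site fell from 4 to 1 for TCAAGGTCA, to 2 for TNAAGGTCA and to 1 within 100 bp of the midpoint. At 1 kb from the 5′ end of the gene only, an alternative added after seeing the data, Ogdh lost its peak and 2 genes had one; by the same measure 3 of the 4 peaks were promoter peaks. Of 52 alternative values, 9 moved by more than 1.5 times. No paired analysis was possible because the list merges the antibody libraries. For that reason neither could be left out, and without a score per peak no stricter threshold could be set. A gene without a peak is one without a call at this threshold.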
